A study of Rattus norvegicus with 12 samples.

Results

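The rat miRNAs rno-miR-21, rno-miR-146a, rno-miR-146b and rno-miR-155, below without the prefix for the rat, which are widely studied in inflammation, were described in soleus muscle of adult rat offspring by the diet of their dams. They were chosen by name, without star strands, and 3 of the 4 had a row among the 677 rat miRNAs of the array. No row carried the name miR-155, so its level was not analysed here. The samples were soleus muscles, a slow postural muscle of the hind limb, of 12 male Sprague-Dawley offspring aged 1 year. Control offspring came from 6 animals whose dams ate standard chow, and HF offspring from 6 animals whose dams ate a diet rich in saturated fat and sucrose from before mating until the end of lactation. All 12 offspring were themselves kept on chow after weaning, and the labels do not say which of them were littermates. Each rat had 1 single-colour array, hybridised with 100 ng of Cy3-labelled total RNA. The rats are named here by their label codes (C73, H3 and so on), whose letters do not stand for the diet.

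A miRNA is a short RNA that pairs, mainly through its seed (bases 2 to 8), with sites in target mRNAs and lowers their stability or translation. MiR-146a and miR-146b are induced through NF-kB and target the adaptors IRAK1 and TRAF6 of Toll-like receptor signalling, a feedback loop that limits inflammatory signalling. MiR-21 is expressed in many cell types, rises in inflamed and fibrotic tissue and targets Pdcd4. MiR-155 is induced in activated macrophages and lymphocytes, where it targets Socs1, an inhibitor of cytokine signalling. Soleus is a mixture of muscle fibres, vessels, connective tissue and resident leukocytes. In such bulk RNA, fewer cells of a type and less RNA per cell cannot be told apart.

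The mature sequences below are RefSeq entries of the rat genome build GRCr8, matched to the array names through their 5p arms, and all 4 had an entry. They are shown because the seeds divide them into 3 groups and because the sequences of miR-146a and miR-146b are nearly the same. The seed is in capitals, and each sequence runs from 5′ to 3′.
miR-21: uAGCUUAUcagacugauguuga
miR-146a: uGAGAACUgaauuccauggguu
miR-146b: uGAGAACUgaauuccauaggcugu
miR-155: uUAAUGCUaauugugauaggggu

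MiR-146a and miR-146b shared the seed GAGAACU, and no other of the 724 RefSeq rat mature miRNAs had the seed of any of these miRNAs. Counted from the 5′ end, their first 17 bases were identical. Beyond them miR-146b differed from miR-146a by the substitutions G18A and U21C and by 2 further bases at its 3′ end. These positions are in capitals here.
miR-146a: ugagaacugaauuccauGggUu
miR-146b: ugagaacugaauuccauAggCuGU

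The miR-21 sequence lies at chr10:71902653-71902674 on the minus strand, with Vmp1 as its nearest protein-coding gene. The miR-146a sequence lies at chr10:28350053-28350074 on the minus strand, inside the long non-coding RNA gene LOC134480673. The miR-146b sequence lies at chr1:255144874-255144897 on the plus strand, in the bounds of the protein-coding gene C1h10orf95. The miR-155 sequence lies at chr11:37261117-37261139 on the plus strand, inside Mir155hg, the non-coding host gene named after it. The 3 miRNAs with a row thus come from separate loci on 2 chromosomes. The array's probe sequences were not used here, and whether its probes separate miR-146a from miR-146b was not tested.

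Detection was the same in both diets. MiR-21, miR-146a and miR-146b were each detected on all 12 arrays, as were 162 of the 677 miRNAs. The star strands miR-21*, miR-146a* and miR-146b*, which come from the opposite arms of the hairpins, were detected on 0 of 12 arrays. MiR-155* had no row and was not analysed here. Of the 6 muscle miRNAs listed for checking the tissue, 5 were detected on every array (among them the brightest, miR-1, miR-133b and miR-206) and miR-208b-3p on 11. In HF rat H3, miR-499, a miRNA encoded within a myosin gene, had a scaled signal of 366, against 5051 to 7994 in the other HF rats and 4553 to 9137 in controls. H3 therefore stood apart. Values without it are given below for the diet differences and ratios of miR-21, miR-146a and miR-146b and for the main correlations. The values of the lists of other miRNAs include H3.

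Signals were compared on 2 scales. The listed signal is the scanner software's total signal of a miRNA, not normalized between arrays. The scaled signal is the listed signal over its array's own 75th percentile, taken across the 162 miRNAs detected throughout, and is in the same units. That percentile ran from 864 to 1665 (median 1243) in control offspring and from 1178 to 1911 (median 1490) in HF offspring, a log2 difference of 0.31 (exact two-sided permutation test, p = 0.102). The arrays lay on 2 slides with 3 rats of each diet on each, and the percentile was higher on slide 2 by 0.40 on the log2 scale (exact two-sided permutation test, p = 0.0303). With diet labels permuted within slides, the diet difference in the percentile had an exact p of 0.05. The mean log2 percentile was higher in HF offspring on both slides, by 0.25 on slide 1 and 0.37 on slide 2. The part of this brightness in the results on listed signals was not tested.

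The mean listed signal of miR-21 was higher in HF than in control offspring, without passing the adjusted threshold, and after scaling the difference lay within the spread between rats. Its listed signal had a lowest value of 3742, a median of 3993 and a highest value of 5434 in control offspring. In HF offspring the lowest was 3857, the median 5953 and the highest 6825. Thus 5 of the 6 HF rats lay above every control, and H1 was the exception, among the lower control values. The means were 4359 ± 736 (SD, n = 6) and 5826 ± 1040 (SD, n = 6), a difference of 0.41 on the log2 scale (95% interval 0.018 to 0.81, limma). The unadjusted p was 0.0418 in limma and 0.0216 in the exact two-sided permutation test, or 0.03 with the labels permuted within slides. After Benjamini-Hochberg adjustment over 193 miRNAs the limma p was 0.992. With single rats left out, the unadjusted limma p was under 0.05 in 3 of 12 fits, those without H1 (0.0096), C73 (0.0268) or A89 (0.0274). In the other 9 it ran from 0.0527 without H3, where the difference was 0.41, to 0.0873 without C25. MiR-21 was 1 of 3 miRNAs with an unadjusted p under 0.05 on this scale, 1.55% of those tested and all higher in HF offspring, the others being miR-675* and miR-425, named after their values were seen. This count was 19 without A89 (smallest limma adjusted p 0.0722), 8 without H1, 6 without H3 and 2 to 4 without each other rat. On the listed signals 153 of the 193 miRNAs (79.3%) had a positive mean change. With single rats left out this ran from 109 of 192 without C60 to 169 of 191 without A89.

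After scaling, the miR-21 signal was 3890 at its lowest, 4248 at the median and 7078 at its highest in control offspring. The corresponding HF values were 4433, 5096 and 6029. The groups overlapped, with 4 control rats below every HF rat and the control rat C73 above all of them. The means were 4920 ± 1268 (SD, n = 6) and 5183 ± 632 (SD, n = 6). The log2 difference was 0.10 (SE 0.17, 95% interval -0.26 to 0.47, limma adjusted p = 0.835), and the exact two-sided permutation test gave p = 0.519. It was 0.14 without H3, and from 0.042 to 0.26 with each rat left out in turn. The difference was -0.018 on slide 1 and 0.22 on slide 2.

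The median log2 change of the 193 miRNAs was -0.17 after scaling and 0.14 without it. Neither median was stable. With single rats left out, the scaled one ran from -0.22 without H1 to -0.034 without H3. The unscaled one ran from 0.034 without C60 to 0.25 without A89, and was 0.23 without H3. Quantile normalization gave a median of -9.9e-05, and dividing by the median of detected miRNAs gave 0.0097. With all rats, miR-21 lay 0.27 above the median on both scales. This distance is nearly fixed between scalings that divide each array by 1 factor, so its likeness on both scales shows no stability. After scaling, 10.4% of the tested miRNAs had a larger log2 change than miR-21. With each rat left out in turn the distance ran from 0.17 without H3 to 0.37 without H1. This is a description of its position, with no test of its own.

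**Figure D1:**
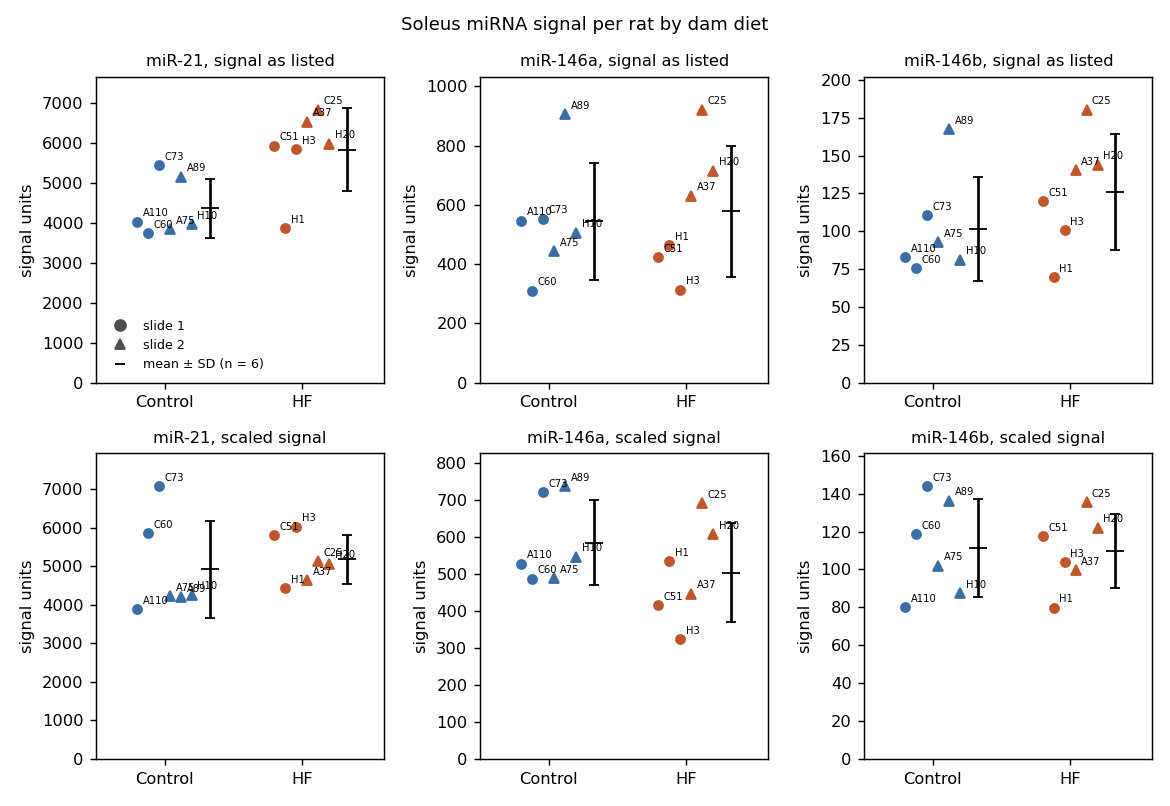
Signal of miR-21, miR-146a and miR-146b in each rat, as listed (upper row) and after scaling (lower row), in signal units. Circles are rats on slide 1 and triangles rats on slide 2, and black bars are means ± SD of 6 rats. In the listed signals 5 HF rats lie above every control for miR-21, while after scaling the diets overlap for all 3 miRNAs.

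MiR-146a, the NF-kB feedback miRNA, did not differ between the diets beyond the spread between rats. Its scaled signal was 487 at its lowest, 537 at the median and 737 at its highest in control offspring. In HF offspring these values were 324, 490 and 692. The groups overlapped, although the HF rats H3, C51 and A37 lay below every control and the control rats A89 and C73 above every HF rat. The means were 584 ± 114 (SD, n = 6) and 503 ± 134 (SD, n = 6), with a log2 difference of -0.24 (SE 0.20, 95% interval -0.67 to 0.19, limma adjusted p = 0.685; exact two-sided permutation test, p = 0.251). The difference was -0.45 on slide 1 and -0.023 on slide 2. Without H3 it was -0.039. In the listed signals the sign turned, with means of 544 ± 199 (SD, n = 6) in control and 578 ± 222 (SD, n = 6) in HF offspring and a log2 difference of 0.071 (95% interval -0.56 to 0.70, limma). Without H3 this difference was 0.23. The listed signal of miR-146a was higher on slide 2 by 0.64 on the log2 scale (exact two-sided permutation test, p = 0.0260), against 0.25 after scaling (p = 0.240 in the same exact test).

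MiR-146b, with the same seed, did not differ between the diets beyond the spread between rats after scaling. Its scaled signal was 79.9 at its lowest, 110 at the median and 144 at its highest in control offspring, and 79.8, 111 and 135 in HF offspring. The ranges of the groups were nearly the same. The means were 111 ± 26.0 (SD, n = 6) and 110 ± 19.5 (SD, n = 6), with a log2 difference of -0.0079 (SE 0.18, 95% interval -0.40 to 0.39, limma adjusted p = 0.987; exact two-sided permutation test, p = 0.952). This interval leaves room for differences in either direction. The difference was -0.16 on slide 1 and 0.15 on slide 2, and 0.086 without H3. In the listed signals the means were 102 ± 34.5 (SD, n = 6) and 126 ± 38.4 (SD, n = 6), with a log2 difference of 0.30 (95% interval -0.26 to 0.86, limma). Without H3 this difference was 0.35. The slide difference of the listed signal was 0.50 on the log2 scale (exact two-sided permutation test, p = 0.0628).

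Over all 193 miRNAs, limma on scaled signals gave 0 with an adjusted p under 0.05 (0%), and 0 of the 3 described here. At an unadjusted p under 0.05 it gave 2 miRNAs, 1.04% of those tested, namely miR-204 and miR-30c-1* (also named after their values were seen), and 0 of the 3. The methods' t-test gave the same counts of 0 after adjustment and 2 before it. After scaling 39 of the 193 miRNAs (20.2%) had a positive mean change, miR-21 among them. Groups without overlap were found for 0% of the tested miRNAs on either scale. The error that the scanner software gives for a signal was 7.45% to 9.31% of the signal for these miRNAs. The coefficient of variation between the rats of a group, which are separate animals, ran from 12.2% to 26.7% for scaled signals and from 16.9% to 38.3% for listed signals, which also carry the brightness of the array.

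**Figure D2:**
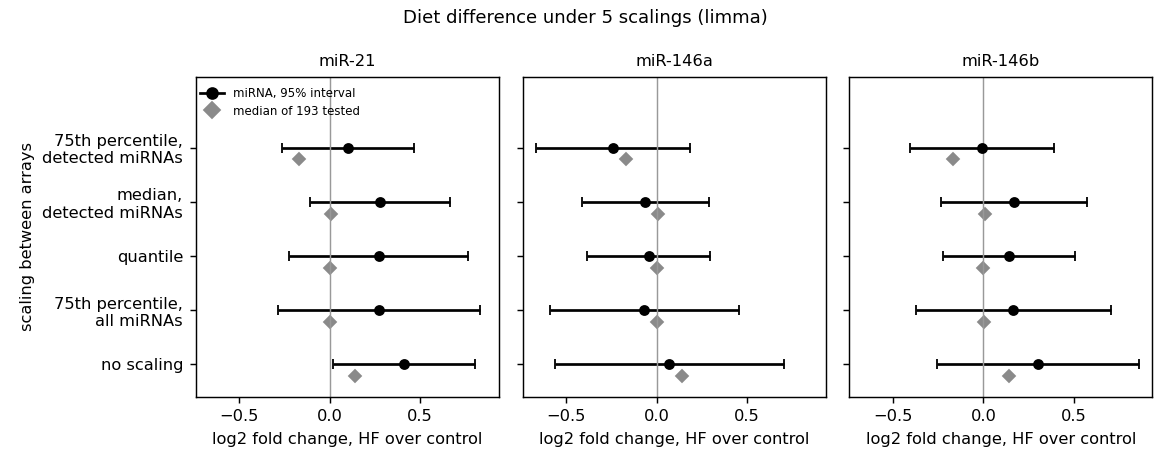
Log2 fold change of HF over control offspring for each miRNA under 5 ways of scaling the arrays, with 95% intervals from limma over 6 rats per group. Grey diamonds show the median of the 193 tested miRNAs under the same scaling. Scaling by 1 factor per array moves the miRNA and the median together. The interval of miR-21 leaves out zero without scaling but not under the other settings.

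A ratio of 2 miRNAs within an array is the same with any scaling that divides the array by 1 factor, though not after quantile normalization. Since probes differ in brightness, only the change of a ratio between rats is read here, not its size. The log2 ratio of miR-146a over miR-21 was -3.06 ± 0.37 (SD, n = 6) in control and -3.40 ± 0.52 (SD, n = 6) in HF offspring. Its difference of -0.34 did not exceed the variation among rats, with an exact two-sided permutation p of 0.223 (0.390 after Benjamini-Hochberg adjustment over the 3 pairs). The difference was -0.44 on slide 1 and -0.25 on slide 2. The log2 ratio of miR-146b over miR-21 was -5.46 ± 0.27 (SD, n = 6) and -5.57 ± 0.24 (SD, n = 6), and the exact adjusted p of the difference was 0.489. The log2 ratio of miR-146a over miR-146b was 2.40 ± 0.25 (SD, n = 6) and 2.17 ± 0.40 (SD, n = 6), and the exact adjusted p was 0.390. This last ratio ran from 1.64 in H3 to 2.74 in H1, both HF rats, so that the signals of these near-identical miRNAs did not keep a fixed proportion. H3 had the lowest value of all 3 ratios. Without H3 the difference was -0.18 for miR-146a over miR-21, -0.053 for miR-146b over miR-21 and -0.12 for miR-146a over miR-146b. The difference for miR-146b over miR-21 was -0.11 with all rats and -0.0061 without A89.

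**Figure D3:**
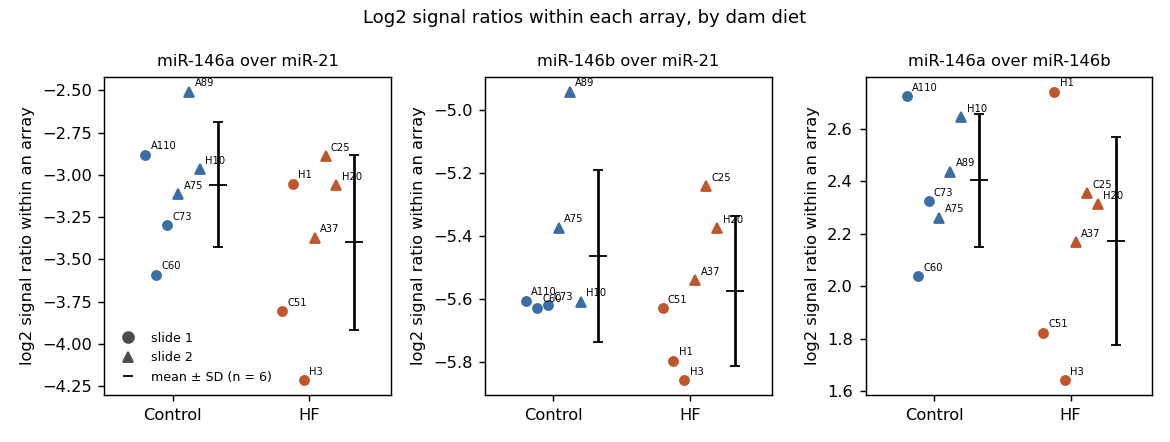
Log2 ratios between the signals of miR-146a, miR-146b and miR-21 within each array, by dam diet. Circles are slide 1, triangles slide 2 and black bars means ± SD of 6 rats. The HF rat H3 is lowest in each panel, and the control rat A89 is highest in both ratios over miR-21.

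Across the 12 rats, the miRNAs differed in how they varied together. On scaled signals the Pearson correlation was 0.60 between miR-21 and miR-146b (Spearman 0.48, permutation p = 0.0404 and 0.114, adjusted 0.283 and 0.546 over 483 relations). Without C73 and A110, the rats farthest from the median of miR-21, it was 0.32, and it was 0.95 within slide 1 and 0.44 within slide 2, which holds neither rat. Between miR-21 and miR-146a the correlation was -0.13 (Spearman -0.23, permutation p = 0.690 and 0.473, adjusted 0.955 and 0.843), and -0.56 without the same 2 rats. Between miR-146b and miR-146a it was 0.45 (Spearman 0.49, permutation p = 0.142 and 0.110, adjusted 0.534 and 0.544). For this pair it was 0.64 without A110 and H1, 0.20 within slide 1 and 0.82 within slide 2. None of these relations passed the adjusted threshold. Without H3 the correlations were 0.66 for miR-21 with miR-146b, 0.11 for miR-21 with miR-146a, where the sign turned, and 0.54 for miR-146b with miR-146a. On the listed signals, which share the brightness of their array, the correlations in the same order were 0.85, 0.46 and 0.76.

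For each miRNA, the 3 miRNAs most like it over the rats were taken from the 161 others detected on all arrays, by Pearson r on scaled log2 signals. Relations with an adjusted p under 0.05 were found for miR-146a only, where there were 8, and for none of the relations by Spearman's rho, whose smallest adjusted p was 0.0507. MiR-146a had a positive r with 124 of the 161 miRNAs and a median r of 0.40, against a median of -0.077 for miR-21 and 0.057 for miR-146b. The 8 relations of miR-146a stand beside this higher general level of correlation, and H3 was its lowest rat.

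MiR-146a was most like miR-542-3p, with a Pearson r of 0.91 (Spearman 0.90, adjusted permutation p = 0.0193 and 0.0507). This r was 0.85 without H3, 0.87 without H3 and A89, 0.95 within slide 1 and 0.88 within slide 2. MiR-542-3p was itself a dim miRNA, with scaled signals of 10.3 to 23.3 over the rats. Next were miR-140* (r = 0.88, or 0.79 without H3, adjusted permutation p = 0.0266) and miR-301a (r = 0.87, or 0.81 without H3, adjusted permutation p = 0.0308). MiR-199a-3p, abundant in fibroblasts, had an r of 0.83 with miR-146a (Spearman 0.87, adjusted permutation p = 0.0308 and 0.0519). It was 0.81 without H3, 0.76 without H3 and A89, 0.92 within slide 1 and 0.90 within slide 2. MiR-214, also listed for fibroblasts, had an r of 0.64 with miR-146a (adjusted permutation p = 0.257) and did not pass the threshold. That r was 0.65 without H3, 0.92 within slide 1 and 0.88 within slide 2. The remaining relations under 0.05 were those with miR-100, miR-152, miR-199a-5p and miR-338*, likewise named afterwards.

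MiR-146b was most like 3 miRNAs that are abundant in blood-derived cells, miR-142-3p, miR-223 and miR-142-5p. These are 3 of the 4 leukocyte miRNAs listed for checking the tissue, and miR-150, the fourth, had an r of -0.20, or -0.44 without H3. With miR-142-3p, which is restricted largely to haematopoietic cells, r was 0.76 (Spearman 0.80, adjusted permutation p = 0.121 and 0.108). It was 0.78 without A110 and H1, 0.62 within slide 1 and 0.98 within slide 2. With miR-223, a myeloid miRNA, r was 0.69 (adjusted permutation p = 0.193), 0.38 without A110 and H1, 0.76 within slide 1 and 0.58 within slide 2. With miR-142-5p, the other arm of the miR-142 hairpin, r was 0.64 (adjusted permutation p = 0.277), 0.35 within slide 1 and 0.95 within slide 2. These relations did not pass the adjusted threshold. Without H3, r was 0.78 with miR-142-3p, 0.70 with miR-223 and 0.64 with miR-142-5p. By Pearson r, the likeness to miR-142 was not particular to miR-146b. MiR-146a had an r of 0.78 with miR-142-3p (Spearman 0.57, adjusted permutation p = 0.0876 and 0.423). Without H3 this r was 0.79. With miR-142-5p the r of miR-146a was 0.61 (0.76 without H3, adjusted permutation p = 0.277). It was 0.25 with miR-223 (0.40 without H3) and 0.42 with miR-150 (-0.21 without H3).

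MiR-21 was most like miR-3593-3p, with a Pearson r of 0.81 (Spearman 0.68, adjusted permutation p = 0.0741 and 0.336). It was 0.64 without C73 and A110, 0.88 within slide 1 and 0.48 within slide 2. After it came miR-146b, given above, and miR-20a (r = 0.58, adjusted permutation p = 0.330). The r with miR-20a was 0.54 without C73 and A110, 0.69 within slide 1 and 0.090 within slide 2. Without H3, r was 0.80 with miR-3593-3p and 0.55 with miR-20a.

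**Figure D4:**
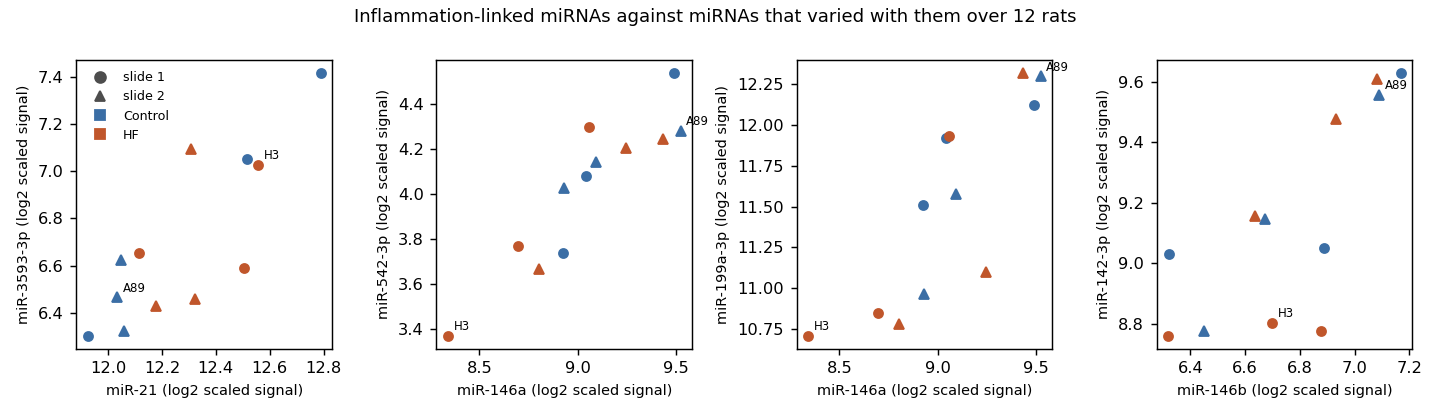
Log2 scaled signals of miR-21, miR-146a and miR-146b (horizontal axes) against miRNAs that varied with them (vertical axes), 1 point per rat. Blue is control and orange HF, circles are slide 1 and triangles slide 2. The rats H3 and A89 are marked, and H3 has the lowest miR-146a signal in both panels of that miRNA.

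Of 18 other miRNAs linked to innate immunity or NF-kB, all on the array, 11 were detected on all arrays and 3 on none. Those 3 were miR-132, miR-147 and miR-187, named after their values were seen. Of the 12 that were tested, 0 had an unadjusted p under 0.05 on either scale (limma, smallest adjusted p after scaling 0.685). After scaling, 1 of the 12 had a positive mean change, miR-223, and the median log2 change was -0.25. Of all tested miRNAs 20.2% were positive, and their median was -0.17. Without H3, 70 of 191 tested miRNAs were positive and their median was -0.034. Both values also moved with the scaling, as given above. In the listed signals 9 of the 12 were positive, with a median of 0.056 against 0.14 for all. The median of all miRNAs moved with single rats left out on this scale too, as given above. The 4 brightest were miR-125b-5p, let-7i, let-7e and miR-212. MiR-125b-5p, which targets Tnf, had scaled signals of 5625 ± 1150 (SD, n = 6) in control and 4448 ± 1279 (SD, n = 6) in HF offspring, a log2 difference of -0.36 (limma adjusted p = 0.685). Let-7i, which targets Tlr4, had 4855 ± 384 (SD, n = 6) and 4240 ± 978 (SD, n = 6), a log2 difference of -0.22 (limma adjusted p = 0.685). MiR-212 had a log2 difference of -0.20 and let-7e one of -0.25, both with a limma adjusted p of 0.685.

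The miRNAs of other cell types were read beside these results. All 4 leukocyte miRNAs were detected on all arrays, and their summed scaled signal ran from 1411 to 1897 in control and from 1219 to 1905 in HF offspring. Of the 4, 2 had a positive mean change after scaling, against 20.2% of all tested miRNAs, with a median log2 change of -0.047. In the listed signals 4 of 4 were positive, against 79.3% of all, with a median of 0.26. Both shares of all miRNAs moved with single rats left out, and the first also with the scaling, as given above. No difference between the list and all miRNAs was tested. On either scale 0 of the 4 leukocyte miRNAs had an unadjusted p under 0.05. All 3 fibroblast miRNAs were detected on all arrays, with a summed scaled signal of 2755 to 7094 in control and 2342 to 7391 in HF offspring. Of the 3, 0 had a positive mean change on either scale, the median log2 change being -0.51 after scaling and -0.20 in the listed signals, and 0 had an unadjusted p under 0.05. MiR-199a-3p and miR-199a-5p are the arms of 1 hairpin, so these 3 are not separate observations. Of the 4 epithelial miRNAs, 0 were detected on all arrays and 2 were detected on none. Both miRNAs listed for red blood cells, for endothelium and for smooth muscle were detected throughout, and 0 of 2 in each had a positive mean change after scaling. In the listed signals 1 of 2 red blood cell, 2 of 2 endothelial and 2 of 2 smooth muscle miRNAs were positive. The endothelial pair, miR-126 and miR-126*, likewise comes from 1 hairpin. Of the 6 muscle miRNAs 2 were positive after scaling and 3 in the listed signals. In these lists 0 miRNAs had an unadjusted p under 0.05 on either scale. The part of leukocytes and fibroblasts in the signals of miR-21, miR-146a and miR-146b was not tested.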

How the data were processed

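Agilent 1-colour rat miRNA arrays measured soleus RNA of 12 rat offspring, 6 per dam diet. The authors deposited, per array, each miRNA's total signal intensity, its error and a detection flag, background-subtracted and combined over spots by the scanner software (version not given in the sources used here). The intensity values are not normalized between arrays, and undetected miRNAs are listed at 0.1. The authors' value table held the same intensity values (0 cells differed). Groups came from the labels, and slides from the array barcodes.

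The 22 control rows were left out. Signals were divided by their array's 75th percentile over the 162 miRNAs with detection throughout, multiplied by the same factor on every array, given a floor of 5.17 and log2 transformed. HF minus control was fitted in limma 3.58.1 (R 4.3.3), and p-values were adjusted (Benjamini-Hochberg) across 193 miRNAs with detection on 6 or more arrays. The fit was tested on simulated data with independent noise for each miRNA, and the outcome is not given here. That simulation held no shared array brightness or slide difference, so it does not cover them. Exact two-sided permutation tests in Python 3.11.15 used 924 assignments of rats, or 400 within slides, for which 0.0022 is the smallest p over all rats. Correlations used 100000 permutations. The number of arrays limits the precision.

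The miRNAs named were the 4 given, their star strands, miRNAs of the same seed, the 3 most like each, and up to 4 of each fixed list, those with the highest mean signals. Other miRNAs (detected on no array, alone in their direction, beyond a threshold or marking H3 and incomplete detection) were named after their values were seen. Members and lists were chosen with earlier results of these data known. Alternatives covered scaling, floor, filter, blocks, tests and single rats left out.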

Additional observations from a re-analysis of the deposited data

Results flagged for a closer look

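Of 18 groups of 6 rats examined, 2 held a rat set apart from the other 5 by Dixon's test at 95%, which chance alone gives in about 1 of 20 groups. The listed miR-21 signal of HF rat H1 was 11.91 on the log2 scale, or 3857 signal units, the lowest of the HF offspring. H1 was also the dimmest HF array, with a 75th percentile of 1178. Its gap to the next rat was 0.73 of the HF range in the listed signals and 0.14 after scaling. After scaling H1 was therefore not set apart. Without H1, the diet difference of the listed miR-21 signal was 0.53 on the log2 scale in place of 0.41. The log2 ratio of miR-146b over miR-21 in control rat A89 was -4.94, the highest of the control offspring. A89 was also the brightest control array, with a 75th percentile of 1665, though a factor common to the whole array leaves the ratio unchanged.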

How the results depend on the processing

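No adjusted limma p was under 0.05 in any of 26 alternatives (0 miRNAs each time; unadjusted counts follow). Some of the 26 could not change a difference. These were the changed floors and filters, slide as a block, trend and robust fitting, the t-test and the authors' value table. For miR-21, miR-146a and miR-146b they repeated the main value, so counts of unchanged signs include them. The miR-21 difference stayed positive in all 26, from 0.037 to 0.41 on the log2 scale, with adjusted p from 0.656 to 0.998. The miR-146a difference stayed negative in 25 of 26 and was 0.071 without scaling. The miR-146b difference, -0.0079, changed sign in 13 of 26: it was 0.30 without scaling, 0.16 with the 75th percentile over all miRNAs, 0.14 after quantile normalization, 0.17 with the median of detected miRNAs, 0.022 with the label letter as a block and 0.13 with array weights. It ran from -0.097 to 0.12 over single rats left out, and was positive without C73, C60, H3, H1, H10, A37 or A89. In the fits without scaling, added after the data were seen, leaving out single rats gave 0.36 to 0.53 for miR-21, -0.082 to 0.23 for miR-146a (negative without C60, C25 or H20) and 0.19 to 0.46 for miR-146b. The unadjusted p of miR-21 there ran from 0.0096 without H1 to 0.0873 without C25, and 3 of 12 were under 0.05. The number of unadjusted p-values under 0.05, 2 in the report, was 6 after quantile or median scaling, 1 with only miRNAs detected on all arrays, 8 with slide as a block, 12 with array weights and 1 with trend and robust fitting. Over single rats left out it ran from 1 (without H3 or A37) to 15 (without H1), with 4 without C73, 5 without H10 and 6 without C25. The differences of all 3 ratios stayed negative in all 14 alternatives. Among these, the signals without a floor and the authors' value table repeat the main values by construction. The others left out single rats. The cause of these changes was not tested. No paired analysis was possible because the groups share no replicate numbers. MiR-155 had no row, so nothing was run for it.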
